A study of Homo sapiens with 21 samples.

Results

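S100 genes encode small calcium sensors. They were described here as a set of 10 genes, S100A2, S100A4, S100A6, S100A7, S100A8, S100A9, S100A10, S100A14, S100A16 and S100P, found by symbol among the 60617 genes of the tables. Of these, 9 passed the filter on low counts that 18632 genes passed, and S100A7 did not. Poly(A) RNA came from SUM149PT cells, an established human line of inflammatory breast cancer labelled as negative for the estrogen and progesterone receptors. There were 7 untreated groups with 3 libraries each, 21 in all. They were the Parental cells and 6 clones, which the labels call E, M1, M2, EM1, EM2 and EM3. Each clone is 1 clone, so a difference between clones need not belong to the state its name refers to. Whether the libraries within a group are separate cultures is not stated.

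An S100 protein carries a pair of calcium-binding EF-hand loops and works mostly as a dimer that opens a binding face for partner proteins when calcium rises. Most S100 genes sit side by side in the epidermal differentiation region of chromosome 1, among genes of the cornified envelope of skin. In breast and other epithelia, S100A2 and S100A14 are known as genes of basal or epithelial cells, S100A8 and S100A9 form the secreted pair calprotectin, S100A4 is widely used as a marker of mesenchymal and motile cells, and S100A10 is the partner of annexin A2.

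The regulatory sequence just upstream is shown first for 5 members that the results turn on. S100A8 and S100A9 form a protein together, S100A14 and S100P were low in both M clones, and S100A2 was the most abundant member in E. The second listed start of S100A8 is shown because TATAAA stands near it, a choice made after the matches were seen. The 250 bases before the start site were taken from RefSeq, build GRCh38.p14, 5′ to 3′ in the gene's own direction, and all 10 members had at least 1 listed start site (14 in all). The 5 starts shown lie 0 to 2046 bases inside the ends of the genes in GENCODE 29. The windows lie at chr1:153565845-153566094 for S100A2, chr1:153391074-153391323 for the second listed start of S100A8 and chr1:153616326-153616575 for S100A14, all on the minus strand. They lie at chr1:153357604-153357853 for S100A9 and chr4:6693628-6693877 for S100P, on the plus strand. Capitals mark matches, on either strand, to 5 short motifs.
S100A2: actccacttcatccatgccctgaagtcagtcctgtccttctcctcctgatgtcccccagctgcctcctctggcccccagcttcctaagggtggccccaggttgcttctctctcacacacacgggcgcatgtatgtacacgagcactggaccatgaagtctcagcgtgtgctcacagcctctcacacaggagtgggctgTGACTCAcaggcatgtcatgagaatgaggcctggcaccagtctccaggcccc
S100A8: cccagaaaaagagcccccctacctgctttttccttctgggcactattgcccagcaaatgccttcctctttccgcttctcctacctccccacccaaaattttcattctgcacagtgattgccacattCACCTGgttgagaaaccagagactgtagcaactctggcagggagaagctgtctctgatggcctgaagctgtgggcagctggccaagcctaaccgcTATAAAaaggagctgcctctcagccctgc
S100A9: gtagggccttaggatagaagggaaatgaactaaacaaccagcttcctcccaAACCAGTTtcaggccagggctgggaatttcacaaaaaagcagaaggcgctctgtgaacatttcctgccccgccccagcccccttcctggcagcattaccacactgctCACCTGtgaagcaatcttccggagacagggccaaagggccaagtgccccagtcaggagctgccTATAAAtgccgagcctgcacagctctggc
S100A14: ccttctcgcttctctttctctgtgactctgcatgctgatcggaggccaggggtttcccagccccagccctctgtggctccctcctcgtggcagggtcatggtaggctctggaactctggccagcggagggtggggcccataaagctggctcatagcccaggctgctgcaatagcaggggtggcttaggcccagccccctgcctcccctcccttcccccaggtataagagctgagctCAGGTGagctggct
S100P: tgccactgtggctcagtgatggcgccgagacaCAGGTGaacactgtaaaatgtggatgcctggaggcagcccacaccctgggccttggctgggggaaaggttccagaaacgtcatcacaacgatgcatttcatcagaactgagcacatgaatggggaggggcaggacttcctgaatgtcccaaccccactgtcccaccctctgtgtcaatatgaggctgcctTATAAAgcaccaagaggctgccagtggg
The TATA box was searched as TATAAA and AP-1 as TGANTCA. C/EBP was searched as TTGCNNAA, the E-box that ZEB factors bind as CACCTG, and grainyhead-like factors as AACNGGTT. No match overlapped another in the windows of the 10 members. TATAAA stood in a listed window of 5 of the 10 members, against 10.7% of 35116 promoters of that length. S100A8, S100A9 and S100P carried it 28 or 29 bases upstream of the start shown. CACCTG stood in a window of 8 of 10 members, against 17.5% of all promoters, and in S100A14 it lay 14 bases upstream as CAGGTG on the strand shown. The only AP-1 match, 52 bases upstream, was in S100A2 (6.57% of all promoters). The only grainyhead-like match, 199 bases upstream, was in S100A9 (1.49%). TTGCNNAA matched no member's window (9.05% of all). A match is a run of letters only, and members with several starts had more than 1 window to match in.

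Levels below are TPM, the authors' library-scaled transcript level per gene length. Tests use counts in edgeR's quasi-likelihood F-test with Benjamini-Hochberg adjustment over all tested genes, and a gene was called at an adjusted p under 0.05. Mean effective length, the number of start positions a read can have in a transcript, parted the clone libraries in a way the labels do not name. A short set held every E library and the replicate 3 libraries of the 5 other clones (1980 to 2034 bases), and a long set held the other 10 (2110 to 2223 bases). E therefore has no library in the long set, and levels of replicate 3 are given beside results that it moves. Leaving out another clone's replicate 3 leaves only its long-set libraries against the short-set libraries of E. Clone and library set can then not be told apart. Total counts were 24.6 to 48.1 per library, in units of 1e6. ESR1 was at most 2.26 TPM and PGR at most 0.05 TPM in every library. All 6 epithelial markers, such as CDH1, were called lower in M1 and in M2 than in E. Of the 6, 3 were called lower in EM1, 4 in EM2 and 5 in EM3. Of 5 mesenchymal markers, all were called higher than E in M1, 4 in M2, 2 in EM1, 3 in EM2 and 2 in EM3. VIM was called higher in all 5 other clones, and SPARC was called lower in EM1. Of all tested genes, 18.1% were lower and 18.1% higher in M1, and 26.8% and 24.6% in M2. In EM1, EM2 and EM3, 8.09%, 6.95% and 7.96% were lower. Against E, the TPM ratio of the median gene lay 0.20 to 0.29 (log2) above its fold in counts. For members the gap could be larger. In M1 against E, S100A6 had 0.94 in TPM and 0.50 in counts, and S100A2 had -2.06 and -3.22. TPM ratios to E therefore run high by an amount that differs by gene. The comparisons against E share its 3 libraries.

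Across the 7 lines, 7 of the 9 tested members differed in the F-test of all line means, where 62.5% of all tested genes did. Those were S100A2, S100A6, S100A8, S100A9, S100A14, S100A16 and S100P. S100A4 (adjusted p = 0.25) and S100A10 (adjusted p = 0.062) were not called. The plot of levels by library shows the members falling into a few patterns. Some were nearly absent in the M clones, some differed between clones with like names, and S100A6 was highest in the M clones.

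**Figure D1:**
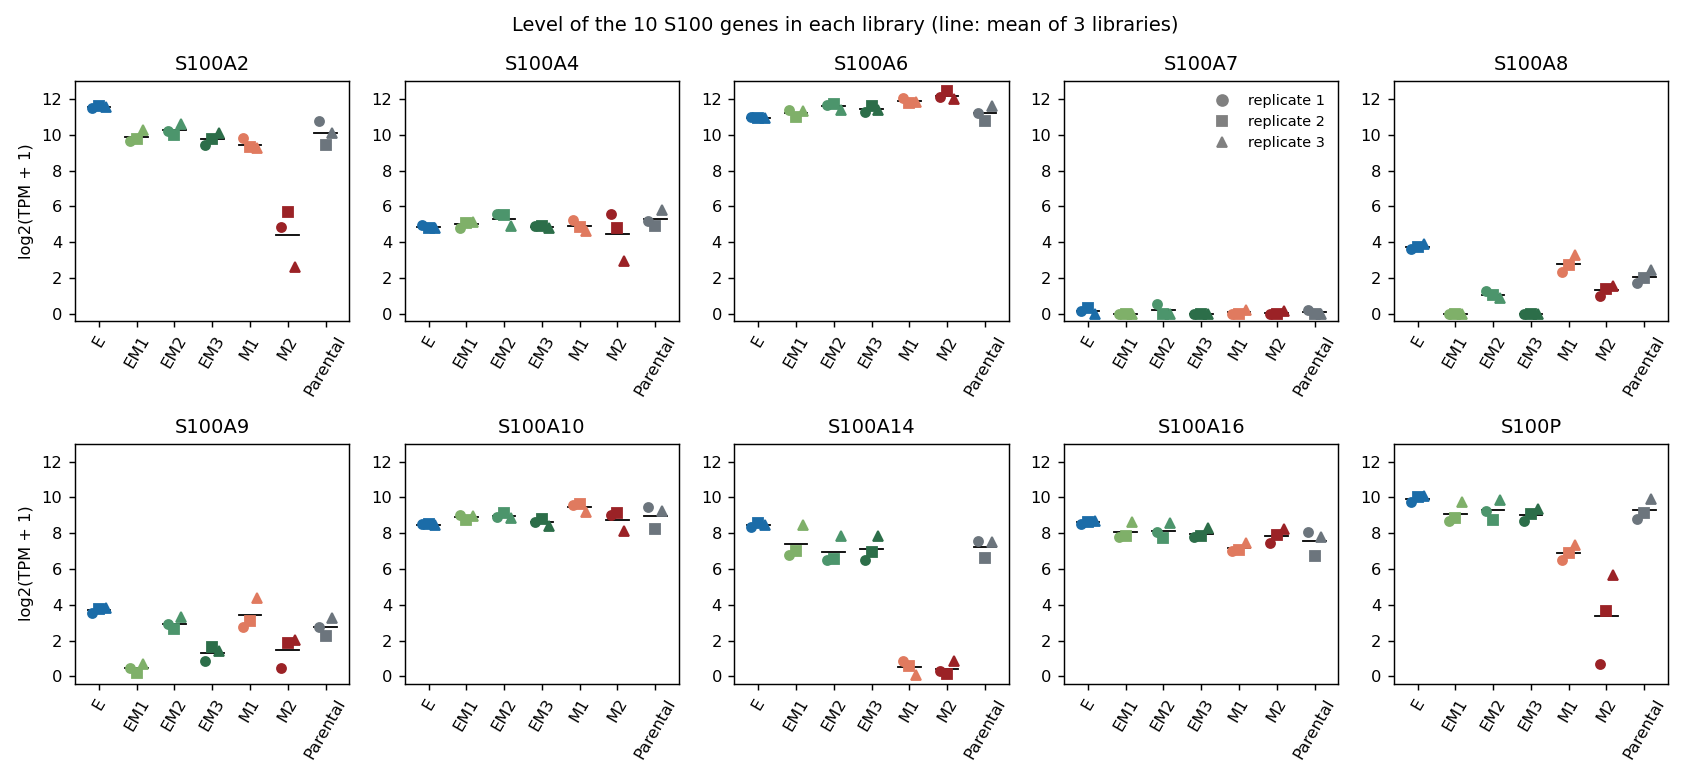
Level of each of the 10 genes as log2(TPM + 1) (y axis) in the 3 libraries of each line (x axis), with circles, squares and triangles for replicates 1, 2 and 3 and a black line for the mean. S100A14 drops to under 1 TPM in every M1 and M2 library, S100A2 only in M2 to 50.7 TPM or less, and S100A8 to 0 in EM1 and EM3.

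S100A14, which encodes a membrane-associated S100 protein of epithelial cells, was close to silent in both M clones. Its levels were 323, 373 and 349 TPM in E, 0.78, 0.48 and 0.07 in M1, and 0.21, 0.10 and 0.78 in M2, in the order of replicates 1 to 3. No M library came within reach of any library of another line, since the lowest of those was 88.2 TPM, in EM2. S100A14 fell, with a log2 fold against E of -10.45 (SE 0.84) in M1 (adjusted p = 3e-08) and of -11.11 (SE 0.88) in M2 (adjusted p = 6.8e-09). Without M2 replicate 3 the M2 value was -12.72, and without M1 replicate 1 the M1 value was -11.18. The 3 libraries summed to 46186 counts in E, 29 in M1 and 17 in M2, so the M values rest on few reads. No difference between M2 and M1 was called (log2 fold -0.66, SE 0.91, adjusted p = 0.6). In bulk RNA such as this, fewer cells that express a gene and less RNA per cell cannot be told apart.

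In the EM clones S100A14 lay between, and its libraries were uneven. The levels were 107, 125 and 344 TPM in EM1, 88.2, 93.4 and 229 in EM2, and 90.0, 122 and 226 in EM3. Replicate 3 was the highest each time and in EM1 reached the E range. Against E the log2 folds were -1.004 in EM1, -1.47 in EM2 and -1.51 in EM3, with adjusted p of 0.21, 0.084 and 0.065, so none was called. A term for the library set brought them to -0.33, -0.83 and -0.78 (adjusted p = 0.63, 0.15 and 0.18). Leaving out the clone's own replicate 3 brought them to -1.73, -2.25 and -2.05, each called (adjusted p = 0.038, 0.015 and 0.03). That left long-set libraries against the short-set libraries of E, so clone and library set cannot be told apart there. Without a low-count filter all 3 EM comparisons were called (adjusted p = 0.0011, 1.3e-06 and 3.8e-07). That setting gave far smaller adjusted p for several members, such as 3.2e-142 for S100A14 in M1 against E, where the main test had 3e-08. Its p-values are therefore not comparable with those of the other tests. EM2 and EM3 were called by limma-voom (0.017 and 0.018) and by limma on log2(TPM + 1) (0.034 and 0.041), and EM3 by DESeq2 (0.041) and with the compared lines fitted alone (0.015). EM3 was called too without EM1 replicate 3 (adjusted p = 0.04), EM2 replicate 3 (0.038) or M2 replicate 3 (0.046). The part of the library set in these values was not tested further. Parental had 190, 97.1 and 180 TPM, inside the range of the EM clones.

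S100P, a secreted S100 protein known from placenta and many carcinomas, was high in E, lower in M1 and lowest in M2. It stood at 855, 1023 and 1064 TPM in E, at 88.7, 119 and 162 in M1, and at 0.64, 11.8 and 49.9 in M2. The 3 groups did not overlap. S100P fell, with a log2 fold against E of -3.37 (SE 0.82) in M1 (adjusted p = 0.0035) and of -5.67 (SE 0.92) in M2 (adjusted p = 4.9e-05). It was lower in M2 than in M1, at a log2 fold of -2.30 (SE 0.79, adjusted p = 0.026). That difference was not called without M1 replicate 3 (adjusted p = 0.087), without M2 replicate 2 (0.097) or with those lines fitted alone (0.13). Without M2 replicate 3, the M2 library with the highest level, it was -4.49, and the fold of M2 against E was -7.86.
In the EM clones S100P was 409, 465 and 848 TPM in EM1, 614, 427 and 940 in EM2, and 407, 531 and 650 in EM3. Replicate 3 was again the highest, and only in EM1 and EM3 did all 3 libraries lie below the lowest E library. The log2 folds of -1.08, -0.82 and -1.29 were not called (adjusted p = 0.33, 0.52 and 0.26). All 3 were called without a low-count filter (adjusted p = 0.00035, 0.021 and 2.7e-05), and EM3 with the compared lines fitted alone (0.0069). The setting without a filter also gave S100P an adjusted p of 3.3e-30 in M1 against E, where the main test had 0.0035. A term for the library set brought the EM log2 folds to -0.21, 0.046 and -0.32. Parental had 448.6, 559.7 and 955.7 TPM.

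S100A2, a nuclear S100 protein known from basal cells of the breast and skin, was the member with the highest level in E. Its levels were 2828, 3095 and 2969 TPM in E, 814, 851 and 1251 in EM1, 1168, 1003 and 1521 in EM2, and 693, 861 and 1098 in EM3. M1 had 890, 624 and 611 TPM, M2 had 28.0, 50.7 and 5.07, and Parental had 1718, 682 and 1104. Every E library lay above every other library, and every M2 library below every other. S100A2 ranked 44th by mean TPM among protein-coding genes in E and 4187th in M2.
S100A2 fell against E in all 5 other clones. The log2 folds were -2.21 (SE 0.56) for EM1, -1.98 (SE 0.55) for EM2 and -2.49 (SE 0.56) for EM3 (adjusted p = 0.01, 0.021 and 0.0049). They were -3.22 (SE 0.58) for M1 (adjusted p = 0.00028) and -7.63 (SE 0.71) for M2 (adjusted p = 6.6e-08). M2 against M1 gave -4.41 (SE 0.62, adjusted p = 1.3e-05). E was above Parental, at a log2 fold of 2.34 (SE 0.56, adjusted p = 0.013).
The counts and the TPM of S100A2 gave different sizes for these differences. Its effective length, which follows the mix of transcripts that the authors' software assigned, was 316 to 369 bases in the 6 short-set libraries of E and the EM clones and 192 to 240 in the 6 long-set ones. In limma's test on log2(TPM + 1) the difference from E was -2.08 in M1 and -1.29 in EM2, and that of E from Parental 1.44. There the EM2 comparison (adjusted p = 0.12) and the Parental one (0.082) were not called, and EM2 was not called with a term for the set (log2 fold -1.57, adjusted p = 0.052). EM2 also lost the call without E replicate 2 or 3 or EM2 replicate 1 or 2 (adjusted p of 0.05 to 0.11). EM1 lost it without EM1 replicate 1 (0.06) or 2 (0.056), and Parental without its replicate 2 (0.065) or 3 (0.063). Leaving out the clone's replicate 3 made the EM1, EM2 and EM3 log2 folds -2.93, -2.60 and -3.10, which then compare long-set libraries with short-set ones. Leaving out Parental replicate 1 made E's 2.94. The part of the transcript mix in these folds was not tested.

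S100A16, a broadly expressed S100 protein whose gene neighbours S100A14, was lower in M1 than in E. It measured 361, 395 and 416 TPM in E and 130, 131 and 174 in M1, a log2 fold of -1.85 (SE 0.43, adjusted p = 0.0025). In M2 the levels were 173, 240 and 303 TPM, all below E, and the log2 fold of -1.01 (SE 0.42) was not called (adjusted p = 0.052). The M2 difference was called under 12 of 31 alternatives, among them without EM1, EM2, M1 or M2 replicate 3 or Parental replicate 1 or 2 (adjusted p of 0.017 to 0.049). A term for the library set brought it to -0.48 (adjusted p = 0.15). EM libraries ranged from 215 to 391 TPM with replicate 3 the highest in each clone, and none of the EM comparisons was called in the main test. Without a low-count filter EM1 (adjusted p = 0.0091) and EM3 (0.001) were called. That setting gave 5.4e-11 for M1, where the main test had 0.0025. EM3 was also called with the compared lines fitted alone (0.012). EM1 was called without its replicate 3 (0.046), with long-set libraries against short-set ones. S100A16 was at 105 TPM or more in every library, while its neighbour S100A14 was under 1 TPM in the M clones.

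S100A8 and S100A9, the subunits of calprotectin, which neutrophils and inflamed epithelia release, differed between clones with like names. S100A8 was 11.2, 12.1 and 13.8 TPM in E and exactly 0 in all 3 libraries of EM1 and of EM3, while EM2 had 1.39, 1.05 and 0.81. M1 had 4.05, 5.69 and 8.85 TPM, M2 0.97, 1.63 and 1.90, and Parental 2.25, 3.00 and 4.39. E lay above every other line, with no overlap. These are low levels, resting on 448 counts in all for E, 160 for M1, 38 for M2 and 25 for EM2.
With a floor of 3 counts over the 3 libraries of a line, S100A8 was at least 111-fold lower in EM1 than in E and at least 128-fold lower in EM3 (adjusted p = 4.2e-06 and 3e-06). The log2 fold against E was -3.99 (SE 0.52) in EM2 (adjusted p = 0.00015), -1.33 (SE 0.45) in M1 (adjusted p = 0.033) and -3.27 (SE 0.50) in M2 (adjusted p = 7.1e-05). M2 against M1 gave -1.94 (SE 0.48, adjusted p = 0.0048), and E against Parental 2.202 (SE 0.47, adjusted p = 0.0098). The M1 call was lost with a term for the library set (log2 fold -0.88, adjusted p = 0.13) and without a low-count filter (0.064). It was lost as well without any 1 of the E libraries or without M1 replicate 1 or 2, with adjusted p from 0.06 to 0.14. Among the EM clones, EM2 was at least 7.29-fold above EM1 (adjusted p = 0.0018) and at least 8.41-fold above EM3 (adjusted p = 0.0014).

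S100A9 was also highest in E on average and lowest in EM1, but no line was at 0. It was 10.6, 12.5 and 13.2 TPM in E, 0.40, 0.13 and 0.60 in EM1, 6.56, 5.18 and 8.84 in EM2, and 0.83, 2.08 and 1.65 in EM3. M1 had 5.78, 7.43 and 20.1 TPM, M2 0.39, 2.58 and 3.14, and Parental 5.87, 3.85 and 8.74. S100A9 fell against E, with log2 folds of -5.21 (SE 0.79) in EM1, -3.39 (SE 0.69) in EM3 and -2.79 (SE 0.67) in M2 (adjusted p = 0.0002, 0.0024 and 0.002). EM2 (log2 fold -1.08, adjusted p = 0.29) and M1 (-0.44, adjusted p = 0.6) were not called against E. Leaving out EM1 replicate 3 or M2 replicate 3 made the EM1 and M2 log2 folds -5.85 and -3.55.
The EM clones differed from each other directly. EM2 was above EM1 by 4.12 (SE 0.77) in log2 (adjusted p = 0.002), and EM3 against EM2 gave -2.31 (SE 0.67) (adjusted p = 0.046). Without EM1 replicate 3 the first was 4.77. The second sat near the threshold and was lost under 17 of 31 alternatives, namely limma-voom, limma on log2(TPM + 0.1), and each of 15 libraries left out in turn. Those were all of E, EM3 and Parental, EM1 replicates 1 and 2, EM2 replicates 1 and 3, and replicate 2 of M1 and of M2 (adjusted p up to 0.2). EM3 and EM1 differed by 1.81 (SE 0.78) with an adjusted p of 1. M2 was below M1 at a log2 fold of -2.35 (SE 0.67, adjusted p = 0.0084). That was not called without M1 replicate 3, the library with 20.1 TPM (log2 fold -1.41, adjusted p = 0.091), or with those lines fitted alone (0.061). Without M2 replicate 3 it was -3.11.

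The balance of the pair also differed by line. The ratio of S100A8 to S100A9 in TPM was 0.97 to 1.06 in the E libraries, 0.44 to 0.77 in M1, 0.092 to 0.21 in EM2 and 0.38 to 0.78 in Parental. In M2 it was 2.49, 0.63 and 0.61, the first of these on 7 and 4 counts. Over the 21 libraries the Pearson correlation of the pair was 0.85 on log2(TPM + 1), and it reflects the differences between lines as well as those within them. Markers of the myeloid cells that carry calprotectin in blood summed to 0.73 to 5.85 TPM in a library. They summed to 3.69 to 5.85 TPM in E, 1.33 to 3.89 in EM1, 2.36 to 4.15 in EM2 and 0.79 to 4.18 in EM3. The sums were 1.40 to 3.09 TPM in M1, 0.73 to 3.18 in M2 and 1.28 to 3.24 in Parental. Of these 12 genes, 9 were under 1 TPM in every library and TYROBP was at 0 in all. CD14, also a gene of other cell types, was 3.20 to 4.77 TPM in E, and it fell in EM1 and in M2 against E. The CD14 call in EM1 was lost under 18 of 31 alternatives, and that in M2 held under all 31. The part of these markers in the S100A8 and S100A9 differences was not tested.

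**Figure D2:**
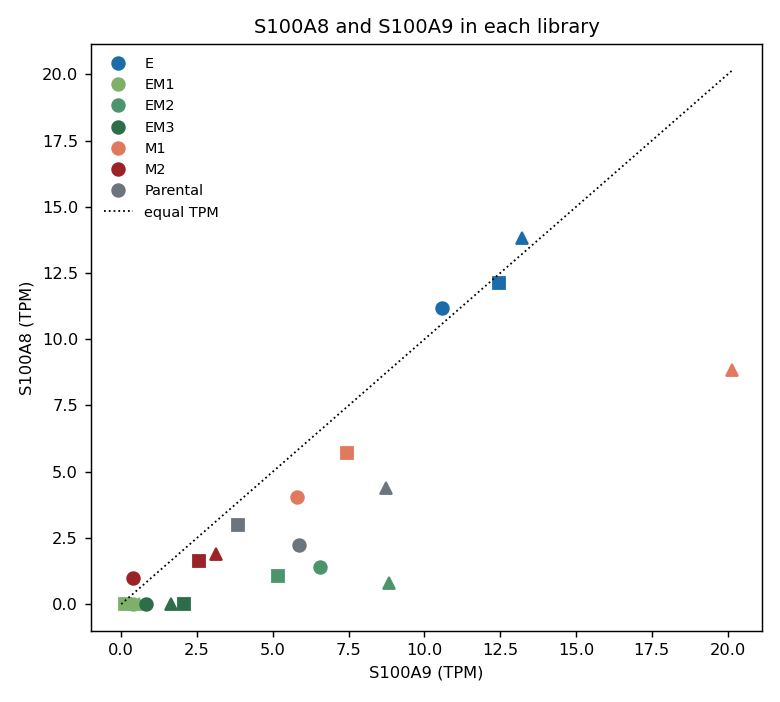
S100A8 against S100A9 in TPM, 1 point a library, with circles, squares and triangles for replicates 1, 2 and 3, colours for lines and a dotted line at equal TPM. E libraries sit near the dotted line at 11.2 to 13.8 TPM of S100A8, EM1 and EM3 lie on the S100A9 (x) axis, at 0 for S100A8 (y axis), and EM2 libraries lie to the right with 5.18 to 8.84 TPM of S100A9.

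S100A6 (calcyclin), which binds the ubiquitin ligase adaptor CACYBP, was the one member called higher in the M clones. It measured 2059, 1940 and 1957 TPM in E, 4289, 3486 and 3661 in M1, and 4393, 5478 and 4021 in M2. In TPM every M library lay above every library of the other lines, the highest of which was 3388 TPM in EM2. In counts scaled to the library total (CPM) that held for M2 (612.0 to 789.8) but not for M1. M1 replicate 2 had 461.5 CPM, below all EM2 libraries (468.5 to 511.5) and Parental replicate 3 (473.1). In counts S100A6 rose by 0.85 (SE 0.19) on the log2 scale in M2 against E (adjusted p = 0.001), which was called under all 31 alternatives. The rise of 0.50 (SE 0.19) in M1 was close to the threshold (adjusted p = 0.047) and was lost under 15 of 31 alternatives, with adjusted p up to 0.27. These were no low-count filter, DESeq2's size factors, and leaving out any 1 library of E, M1 or EM2, EM1 replicate 1, EM3 replicate 2 or 3, or Parental replicate 3. In limma's test on log2(TPM + 1) the difference was 0.94 in M1 and 1.21 in M2. In EM1, EM2 and EM3 S100A6 had log2 folds of -0.07, 0.31 and 0.02, not called. By mean TPM it ranked 82nd among protein-coding genes in E, 22nd in M1 and 17th in M2.

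S100A10 (p11), which binds annexin A2 at the inner cell membrane, was present at 280 to 786 TPM in every library. E had 365, 362 and 345 TPM, M1 777, 786 and 584, and M2 515, 555 and 280. In counts the difference was 0.57 (SE 0.24) in log2 for M1 against E (adjusted p = 0.072) and -0.61 (SE 0.24) for M2 against M1 (adjusted p = 0.051). Neither was called in the main test. They were called under 5 and 10 of 31 alternatives, and leaving out Parental replicate 1 or 2 brought both under the threshold (adjusted p of 0.014 to 0.024).

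S100A4, often used as a marker of mesenchymal cells and fibroblasts, was called in no comparison. It was 30.4, 26.3 and 26.6 TPM in E, 36.6, 27.4 and 23.9 in M1, and 47.3, 27.0 and 6.82 in M2. The log2 fold against E was -0.35 (SE 0.34, adjusted p = 0.45) in M1 and -0.55 (SE 0.34, adjusted p = 0.19) in M2. Other lines ranged from 26.8 to 55.4 TPM. Its gene span overlaps that of S100A3 on the same strand, with no exon bases shared in GENCODE 29. S100A7 (psoriasin), a gene of inflamed skin and some breast tumours, was at 0 to 0.47 TPM, with at most 3 counts in a library.

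Counted by comparison, EM1 had 3 members called lower than E (S100A2, S100A8 and S100A9), where 8.09% of all tested genes were lower. EM2 had 2 (S100A2 and S100A8, background 6.95%) and EM3 had 3 (S100A2, S100A8 and S100A9, background 7.96%). M1 had 5 lower, S100A2, S100A8, S100A14, S100A16 and S100P (background 18.1%), and S100A6 higher (background 18.1%). M2 had 5 lower, S100A2, S100A8, S100A9, S100A14 and S100P (background 26.8%), and S100A6 higher (background 24.6%). The median log2 fold over the 9 tested members was -1.004, -0.82 and -1.29 in EM1, EM2 and EM3, -1.33 in M1 and -2.79 in M2, and over all tested genes 0.01 to 0.04. With S100A8 at its bound in EM1 and EM3 the medians are the same. M2 against M1 had 4 members lower, S100A2, S100A8, S100A9 and S100P (background 22.2%). EM2 against EM1 and EM3 against EM2 had S100A8 and S100A9 (backgrounds 8.14% and 6.74% in either direction). EM3 against EM1 had 0 in edgeR, with 1 member at an unadjusted p under 0.05, and 0 in DESeq2 and limma-voom too (background 0.37%). E against Parental had S100A2 and S100A8, both higher in E (background 10.9%).

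**Figure D3:**
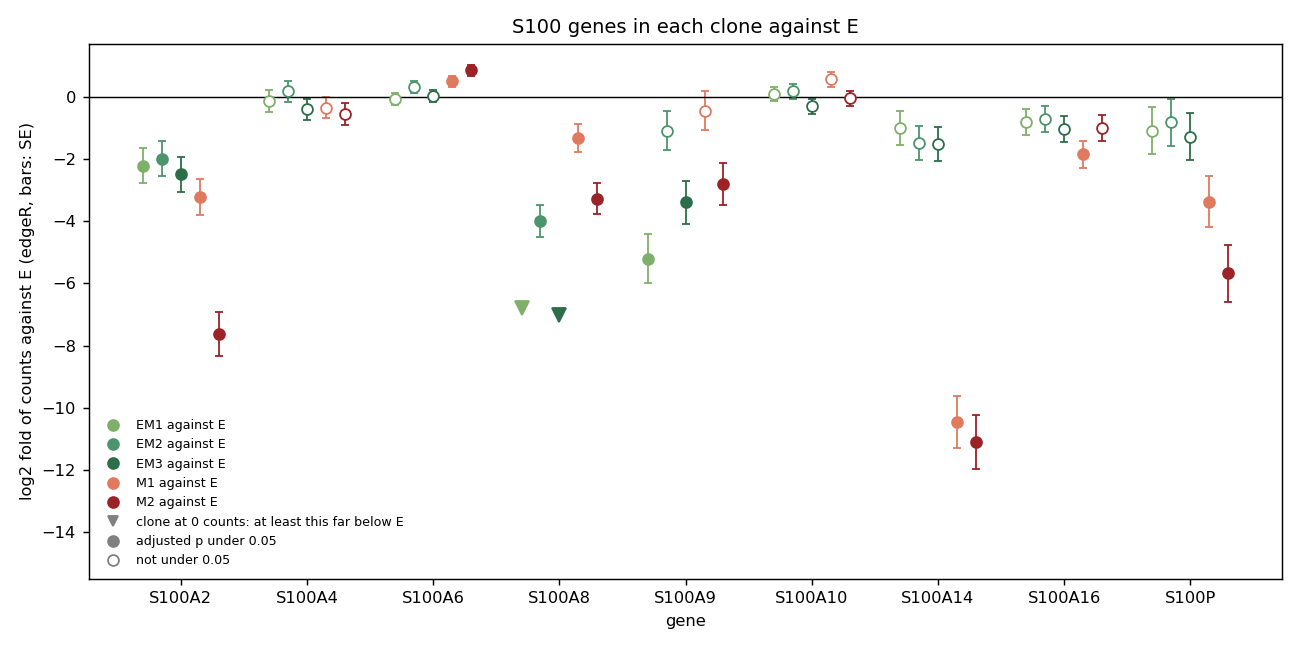
Log2 fold of counts against E (y axis) for the 9 tested genes (x axis) in 5 clones, with SE bars from edgeR, filled points for adjusted p under 0.05 and downward triangles at the bound for clones without a count. S100A14 lies beyond -10 in M1 and M2, S100A2 at -7.63 in M2, and only S100A6 has filled points above 0.

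The makeup of the summed level of the 10 genes differed by line. The sum was 7078 ± 208 TPM in E and 5399 ± 872 in M2 (mean ± SD, n = 3). The other clones had 4956 ± 896 (EM1), 5962 ± 231 (EM2), 4996 ± 626 (EM3) and 5551 ± 582 (M1), and Parental 5162 ± 1415. S100A2 made up 41.9% ± 0.77 of it in E, 12.7% ± 1.4 in M1 and 0.48% ± 0.35 in M2. S100A6 made up 28.1% ± 1.8, 68.7% ± 1.3 and 85.8% ± 0.51. The pair held 64.2 to 86.8% of the sum in every library. These shares depend on gene length, because the deposited effective length of each member is its full length less 299 to 312 bases, and S100A6 keeps a median of 136 of 448 bases. Per full length, a scale added after the data were seen, S100A2 was 48.5% and S100A6 18.8% in E, and 0.64% and 75.8% in M2. S100A2 then led S100A6 in E and trailed it in M2 on either length.

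**Figure D4:**
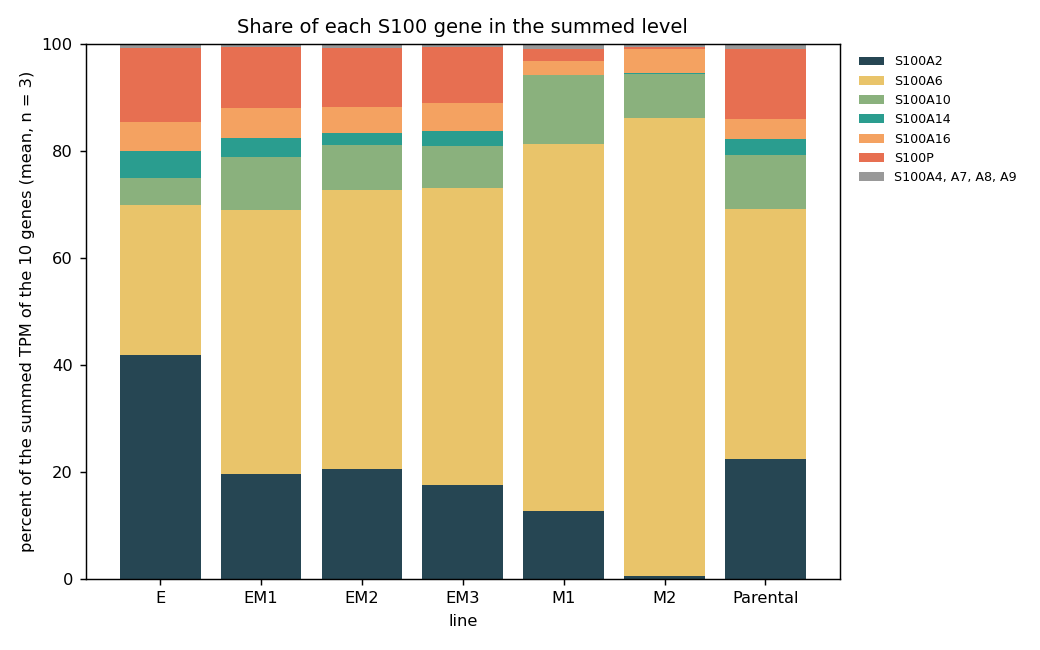
Percent of the summed TPM of the 10 genes held by each (mean of 3 libraries, y axis) in each line (x axis). S100A2 shrinks from 41.9% in E to 0.48% in M2, and S100A6 grows from 28.1% to 85.8%.

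Position along the chromosome was set beside these levels, since most S100 genes are neighbours. Of the S100 genes listed, 17 lie on chromosome 1 (GENCODE 29, GRCh38), and 15 of these form a run of 274 kb with no other protein-coding gene inside. S100A10 and S100A11 lie 1310 kb away, with 47 protein-coding genes between, and S100P is on chromosome 4. S100A16 (chr1:153606886-153613145) and S100A14 (chr1:153614255-153616986) are 1.11 kb apart on the same strand. S100A6 (chr1:153534599-153536244) lies between S100A7, at or near 0 in every line, and S100A5, at 0 in all M2 libraries. S100A2 (chr1:153561108-153567890), low in M2, lies between S100A3 and S100A16. Genes that fell in M2, rose in M2 or did not pass the test were interleaved along the run. S100A6 shares 23 exon bases with an antisense gene that reached at most 0.35 TPM in a line.

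**Figure D5:**
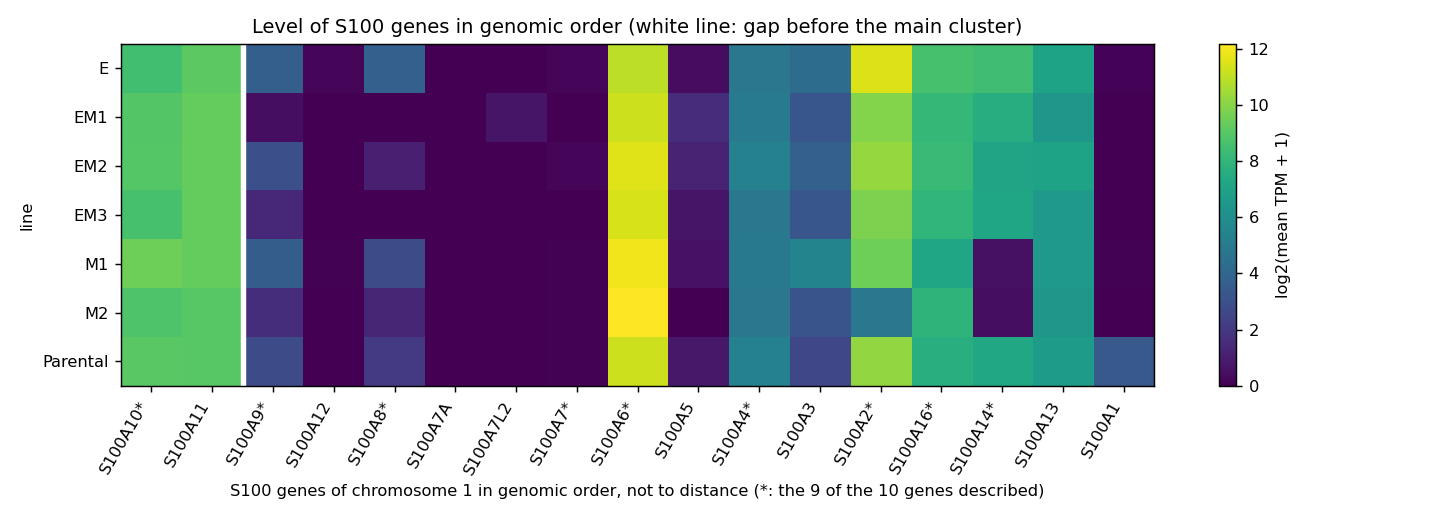
Mean level as log2(mean TPM + 1) (colour) of 17 S100 genes of chromosome 1 in genomic order (x axis, not to distance) in the 7 lines (y axis), with an asterisk on the genes described. S100A2 and S100A14 darken in M2 while S100A6, S100A16 and S100A10 stay bright.

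Of the 11 other S100 genes, 4 passed the filter on low counts. S100A11, the sister of S100A10, stood at 325 to 749 TPM and was called in no comparison made here. S100A13, which takes part in the release of FGF1, fell in 4 clones against E, with log2 folds of -0.96 in EM1 and EM3, -0.95 in M1 and -0.94 in M2. S100A3, a gene of hair cuticle, was 44.1, 43.3 and 46.7 TPM in M1 and 10.5, 8.61 and 4.42 in M2, a log2 fold of -2.51 (adjusted p = 0.00049). S100A5 was at most 3.88 TPM, rose in EM1 against E (log2 fold 2.08) and was at 0 in M2. S100A1, which shares 235 exon bases with S100A13 on the other strand, had at most 5 counts in a library. Its 28.3 TPM in Parental replicate 2 rests on 1 count, and it was at most 0.23 TPM in every other library. S100B and S100G were at 0 throughout, and the 7 genes that carry a fused S100 domain, such as FLG, stayed under 1 TPM in every library.

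Proteins that S100 dimers bind were followed as a list of 10 genes, all tested. Against E, 2 were higher and 4 lower in M1, and 5 higher and 2 lower in M2, where 18.1% of all tested genes were higher and 18.1% lower in M1, and 24.6% higher and 26.8% lower in M2. The partners had medians of -0.37 and 0.50 in log2. ANXA6, an annexin, rose from 0.14 ± 0.03 TPM in E to 20.8 ± 12.6 in M2 (mean ± SD, n = 3), by 7.26 (SE 0.65) in log2. ANXA2, the partner of S100A10, was 1155 ± 53 TPM in E and 2260 ± 736 in M2, and rose by 0.65 (SE 0.27) (adjusted p = 0.049). MYH9, the non-muscle myosin chain that S100A4 binds, rose by 1.21 in M2. IQGAP1, a scaffold bound by S100P, had a log2 fold of -1.06 there. In EM1, EM2 and EM3 only ANXA11, a partner of S100A6, was called, with log2 folds of -0.91, -0.92 and -0.91. Of all tested genes, 8.09%, 6.95% and 7.96% were called lower there, so 1 of 10 partners is near that share.

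Of 4 genes for cell-surface receptors of secreted S100 proteins, all were called in both M clones against E, 1 higher and 3 lower (backgrounds 18.1% and 18.1% in M1, 24.6% and 26.8% in M2). TLR4, a receptor for S100A8 and S100A9, was 0.54, 0.34 and 0.45 TPM in E and 18.9, 7.58 and 4.85 in M2, and rose by 4.38 (SE 0.49) in log2. In M1 it was 1.45, 1.7 and 0.77 TPM, a rise of 1.34 (SE 0.44). TLR4 was highest in M2, a clone with low S100A8 and S100A9. BSG, another receptor of S100A9, was the most abundant of the 4 at 297 to 485 TPM, with log2 folds of -0.81 in M1 and -0.75 in M2. AGER, the receptor for advanced glycation end products, was 0.90 to 4.45 TPM, and CD36 at most 1.05 TPM.

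Of 20 cornified envelope genes from the same chromosome region, 3 passed the filter, and none of the 3 was above 2 TPM in E. These were SPRR2E, SPRR1B and SPRR2D, small proline-rich proteins of the envelope. SPRR2E was called lower than E in all 5 clones, and SPRR1B in both M clones and EM1. SPRR2D was called lower in M1, EM2 and EM3, calls lost under 11, 20 and 22 alternatives. Of all tested genes, 6.95 to 8.09% were lower in an EM clone, 18.1% in M1 and 26.8% in M2. SPRR2D was 0, 2.92 and 15.7 TPM in the M2 libraries. Of 9 regulators of such genes, 8 were tested. GRHL3, a grainyhead-like factor of the skin barrier, fell in all 5 clones against E, from 0.36 TPM or more in E. TP63, the master factor of basal epithelium, was 1.00 ± 0.31 TPM in E, 0.05 ± 0.02 in M1 and 7.96 ± 5.78 in M2 (mean ± SD, n = 3). The log2 fold was -4.29 in M1 (adjusted p = 0.0017) and 2.99 in M2 (0.0056), the clone with the lowest S100A2. M2 replicate 3 had 1.43 TPM of TP63, against 10.01 and 12.4 in the others. ZEB1, an E-box repressor listed here with the mesenchymal markers and not with these regulators, rose by 7.95 in M1 and by 7.54 in M2 in log2.

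Genes whose pattern over the 21 libraries was most like that of a member were ranked by Pearson r of log2(TPM + 1) among 12435 genes. The libraries share lines, sets and depth, so the r is a description. S100A14 was closest to GJB5 (r = 0.99), ST14 (r = 0.99) and SH2D3A (r = 0.99), a connexin, a membrane protease and an adaptor. GJB5 averaged 52.7 TPM in E and 0.14 in M1. S100P was closest to IRAK1 (r = 0.96), LGALS3 (r = 0.95) and SLPI (r = 0.94), a kinase, a galectin and a secreted protease inhibitor. S100A2 was closest to GPRC5A (r = 0.96), GNG4 (r = 0.95) and EMC10 (r = 0.95), and GPRC5A averaged 334 TPM in E and 1.75 in M2.
S100A9 was closest to COL9A3 (r = 0.86), which averaged 54.7 TPM in E, 1.09 in EM1, 11.6 in EM2 and 0.70 in EM3, then C5AR2 (r = 0.85) and ELP5 (r = 0.82). S100A8 was closest to ISG15 (r = 0.87), an interferon-induced gene at 19.3 TPM in E, 3.72 in EM1 and 13.98 in M1, then SVEP1 (r = 0.85) and SIPA1L2 (r = 0.85). S100A6 was closest to SLC4A1AP, ELMOD3 and TFE3 (r = 0.92 each). S100A16 was closest to UPP1 (r = 0.90), AGO2 (r = 0.89) and RPP21 (r = 0.87). Between members, S100A14 and S100P (r = 0.85), S100A2 and S100P (r = 0.82) and S100A2 and S100A14 (r = 0.73) ran alike. S100A6 ran opposite to S100A14 (r = -0.82) and S100P (r = -0.76).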

How the data were processed

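Single-end poly(A) RNA libraries, 3 for each of 7 lines, were analysed. Tools named for the authors' pipeline, per the submitters' processing notes, were bcl2fastq 2.20.0.422, cutadapt 2.4, STAR 2.7.2b and RSEM 1.3.2, with build hg38. The annotation release and strand setting are not given in the sources used here. Each deposited table gives, per the file headers, an expected count, a TPM and an effective length in bases for every gene. No table held columns of other samples. GENCODE 29 gave gene types and positions (58542 of 60617 genes matched).

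After rounding, expected counts of all 21 libraries entered 1 robust quasi-likelihood fit (edgeR 4.0.16 in R 4.3.3, TMM scaling, low-count filter by line), 14 residual degrees of freedom, common biological coefficient of variation 0.344, 10 line pairs and 1 test over all lines. Since separate cultures are not stated, p-values reflect library-to-library spread alone, which may be technical. No replicate pair agreed within sampling noise (chi-square per gene of at least 6.96). The fitting code was tested on data simulated for EM1 and E alone. There edgeR called 28.4% of 2-fold changes, 89.6% of 4-fold and 98.5% of 8-fold ones, and 10 unchanged genes. A difference near 2-fold that was not called may therefore have been missed. Alternatives were other filters, DESeq2 1.42.0 size factors and test, limma 3.58.1 (voom, and trend on log2 of TPM plus 1 or 0.1), a replicate block, compared lines only, the library set (cut at 2050 bases) as a term, and each library left out. Tables were read with pandas 2.3.3 and figures drawn with matplotlib 3.10.9.

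The members and lists were chosen with earlier results of these data known. All 10 members were described. Genes of other lists were named where called, at most 4 a list and comparison, largest fold first, or as at or near 0, and the 3 genes of highest r were named for each member called over the 7 lines. Any further gene was chosen after its values were seen. Same-numbered libraries deviated together, every r above 0.1, only in EM2 against EM1 (0.11 to 0.73) and EM3 against EM2 (0.48 to 0.75), and there the block changed no call of a member.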

Additional observations from a re-analysis of the deposited data

Results flagged for a closer look

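The test of the difference between clones of like name was past the threshold for the members and partners below (edgeR's quasi-likelihood test, Benjamini-Hochberg adjustment). Between M2 and M1, whose effects against E therefore differ, the log2 fold was -4.41 for S100A2, -1.94 for S100A8, -2.35 for S100A9 and -2.30 for S100P. The libraries of the M clones did not overlap for any of these 4. They were picked by the test on those same libraries, so the lack of overlap adds no support. Of all tested genes, 22.2% were called lower in M2 than in M1, and the share without overlap was not counted. TP63 (7.28) and COPS5 (1.42), which encodes a signalosome subunit, were called in opposite directions against E in M1 and M2, and higher in M2 by the direct test.

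Among the EM clones, EM2 was above EM1 by 5.99 for S100A8 and 4.12 for S100A9, and EM3 was below EM2 with log2 folds of -5.99 and -2.31. The S100A8 values are fitted against clones without a count and depend on the prior count, so the bounds in the report replace them. Groups of 3 libraries were not tested for outlying samples.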

How the results depend on the processing

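Of 41 member folds followed under up to 31 alternatives, 1 changed direction, S100P in EM2 against E, at 0.046 (adjusted p = 0.98) with the library set as a term. Of 30 member calls, 22 held under every alternative run. The counts of members called moved as follows, and the cause was not tested. The share of all genes called under each alternative is not given, here or in the next paragraph. A shift in the members can therefore not be told from a shift in all genes. Without a low-count filter they were 6 in EM1, 4 in EM2 and 6 in EM3 against E, and 5 in E against Parental. With a mean CPM of at least 1, S100A8 was not tested, and there was 1 in each of EM2 against E or EM1, EM3 against EM2 and E against Parental. With the compared lines only they were 6 in EM3 against E, 2 in M2 against M1, 1 in EM2 against EM1 and EM3 against EM2, and 6 in E against Parental. The library set as a term gave 1 in EM2 against E, and limma-voom and the trend test on log2(TPM + 0.1) gave 1 in EM3 against EM2.

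With the replicate number as a block, 5 were called in EM3 against E, 4 in EM1, 3 in EM2, 6 in M1, 7 in M2 and 6 in M2 against M1. The block called S100A14 in EM2 and EM3 (adjusted p = 0.016 and 0.015) and S100A16 in EM1 and EM3 (0.041 and 0.018). Every library deviated most like the one with its own number (6 of 6) in M1 against E, E against Parental and EM3 against EM2 only, a hint from the data and not from the design. With each library left out in turn the counts were 2 to 5 in EM1 (5 without EM1 replicate 3), 1 to 3 in EM2, 3 to 4 in EM3, 4 to 7 in M1, 6 to 7 in M2 and 2 to 5 in M2 against M1 (2 without M1 replicate 3). They were 1 to 3 in E against Parental (1 without Parental replicate 2 or 3) 1 to 2 in EM3 against EM2, 2 in EM2 against EM1, 0 in EM3 against EM1 and 6 to 8 over all lines. The count in EM2 was 1 without E replicate 2 or 3 or EM2 replicate 1 or 2. Depth limits S100A7, S100A8, S100A9 and, in the M clones, S100A14, which rest on few counts.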
